A study of Rattus norvegicus with 40 samples.

Results

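The transcripts followed here were 10 genes used as markers of macrophages or tied to their supply: Csf1, Csf1r, Cd68, Aif1, Mrc1, Cd163, Cd14, Ptprc, Itgam and Cx3cr1. They were chosen by name. A probe set belonged to them where the platform annotation gave it exactly 1 gene symbol and that symbol was a member. All 10 genes were found, on 15 probe sets, among 14217 genes named by the arrays and 31042 probe sets tested. Where a gene had several probe sets, the one with the highest mean log2(signal + 16) over the 40 arrays stands for it, and the others are given beside it.

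The tissue was the dorsal root ganglion (DRG), which holds the cell bodies of sensory neurons with their satellite glia, Schwann cells, vessels and resident macrophages. Male Sprague-Dawley rats had the left L5 spinal nerve tightly tied distal to the ganglion (spinal nerve ligation, SNL) or the same operation with no ligature (sham), and DRGs were taken 4 weeks later; no source here states their age. In each cohort of 5 rats the ipsilateral and the contralateral DRG of segments L5 and L4 were profiled separately, which gave 8 groups of 5 arrays: SNL L5 ipsilateral and contralateral, SNL L4 ipsilateral and contralateral, and the same 4 in sham rats. The L4 ganglion of an SNL rat is the neighbour whose nerve was not tied, every contralateral DRG came from an operated rat, and no unoperated rat was profiled. Signals are linear values scaled by the authors with the MAS 5 algorithm. Each comparison of sides is a log2 fold change of signal + 16, ipsilateral minus contralateral, from limma with Benjamini-Hochberg adjustment over all probe sets, and a gene is said to be higher or lower, to have risen or fallen, where its adjusted p was under 0.05. The added 16 shrinks the fold changes of dim genes, so ratios of mean signals are given for the main ones too.

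Macrophages depend on the receptor encoded by Csf1r, which binds 2 ligands, Csf1 and Il34. In mice, tied or cut sensory neurons are known to make Csf1. The other genes mark stages or states of the same lineage: Cd68 is a glycoprotein of lysosomes in phagocytes, Aif1 (Iba1) an actin-binding protein of macrophages and microglia, Mrc1 (CD206) and Cd163 are scavenger-type receptors, Cd14 is the co-receptor for bacterial lipopolysaccharide, Itgam (CD11b) an integrin chain of myeloid cells, Ptprc (CD45) a phosphatase of all leukocytes, and Cx3cr1 the fractalkine receptor of monocytes and microglia. In whole ganglia, more cells of a type and more RNA per cell cannot be told apart.

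Many myeloid genes carry near their start a purine-rich word, GAGGAA, bound by the factor PU.1. The 250 bases before the RefSeq start site (build GRCr8) were searched for it on both strands, and a match on the other strand reads TTCCTC. RefSeq promoters were found for 8 of the 10 genes (not for Aif1 and Csf1), and 6 of the 8 hold the word, as do 23.3% of all 33469 rat promoters of that length searched in the same way. It was found for Csf1r, Cd68, Mrc1, Ptprc, Cd14 and Itgam and was not in the windows of Cd163 and Cx3cr1. The 5 stretches shown are those of genes that were higher after SNL at L5, as 60 bases around the match nearest to the start, each 5′ to 3′ on the gene's strand with the word in capitals. They lie at chr18:56834250-56834309 (plus strand) for Csf1r, chr10:54882443-54882502 (minus strand) for Cd68, chr17:82157656-82157715 (plus strand) for Mrc1, chr13:52259884-52259943 (minus strand) for Ptprc and chr18:28611238-28611297 (minus strand) for Cd14. The capitals that open the Cd14 stretch are the end of another match.
Csf1r: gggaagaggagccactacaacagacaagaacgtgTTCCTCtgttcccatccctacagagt
Cd68: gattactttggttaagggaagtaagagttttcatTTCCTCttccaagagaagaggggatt
Mrc1: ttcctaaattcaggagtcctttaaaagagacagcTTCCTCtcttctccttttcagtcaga
Ptprc: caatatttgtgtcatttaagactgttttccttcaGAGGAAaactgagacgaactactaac
Cd14: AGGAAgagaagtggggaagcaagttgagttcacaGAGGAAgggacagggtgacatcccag
A match is a run of letters, and no binding was measured in these ganglia.

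Several technical measures differed between the sides. Array medians were larger for ipsilateral DRGs in each of the 4 comparisons, by 4.97 to 7.12 signal units. A sign of RNA wear, how far the 3′ control probe set of GAPDH exceeds the 5′ one, was larger ipsilaterally by 0.95 (SNL L4), 0.64 (SNL L5), 0.43 (sham L4) and 0.09 (sham L5) on the log2 scale. In all but sham L5 the sides did not overlap in it (p = 0.00794 by a two-sided exact permutation test, the lowest possible with 5 arrays a side). The same measure for actin was larger ipsilaterally by 1.14 in SNL L5 (p = 0.00794 by the same exact test), 0.77 in SNL L4 (exact p = 0.0159) and 0.22 in sham L5 (exact p = 0.0556), and smaller in sham L4 (-0.21, exact p = 0.159). Added bacterial control RNAs were brighter ipsilaterally on that scale by 0.51 in SNL L4, 1.26 in sham L5 and 1.14 in sham L4 (exact p = 0.00794 in each). In SNL L5 the difference was 0.26 and the sides overlapped (exact p = 0.405). The 10 SNL L5 arrays belong to an array series of their own by their names, so each comparison of sides lies within 1 series, while levels of SNL L5 against the other groups cross series. Arrays were numbered group by group, so side and array order cannot be told apart. The ganglia carried their defining neuronal genes: all 10 sensory neuron genes listed were measured, and their summed signal was 9109 to 18251 over the 40 arrays. The injury gene Atf3 was 1164 ± 38.1 in ipsilateral and 75.9 ± 9.91 in contralateral L5 DRGs of SNL rats (SD, n = 5 each). In sham rats all 5 nerve injury genes listed were higher at L5 too, and 3 at L4, where 21.4% and 12.8% of all genes were higher. Their summed signal was 575 to 666 in ipsilateral and 225 to 264 in contralateral sham L5 DRGs. The injury-induced neuropeptide Vip was 90.5 ± 15.6 in ipsilateral and 6.01 ± 1.41 in contralateral L5 DRGs of sham rats (log2 fold change 2.26).

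In the tied segment, L5 of SNL rats, 7 of the 10 macrophage genes rose on the ipsilateral side and none fell. They were Cd68, Csf1r, Aif1, Mrc1, Ptprc, Csf1 and Cd14, with log2 fold changes of 0.56 to 1.91. Over all genes 35.4% were higher and 19% lower in this comparison, so a rise by itself was common there. With all arrays scaled to equal medians those calls were 3002 higher and 3986 lower, against 5038 and 2704 as deposited, and with quantile normalization 3976 and 2988, and the same 7 members passed as higher under both. The median log2 fold change was 0.66 over the 10 genes and 0.13 over all genes. For each of the 7, the lowest ipsilateral signal exceeded the highest contralateral one, as was true of 25.6% of all genes. The other 3, Cd163, Itgam and Cx3cr1, had positive log2 fold changes of 0.18 to 0.28 that did not pass the test.

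**Figure D1:**
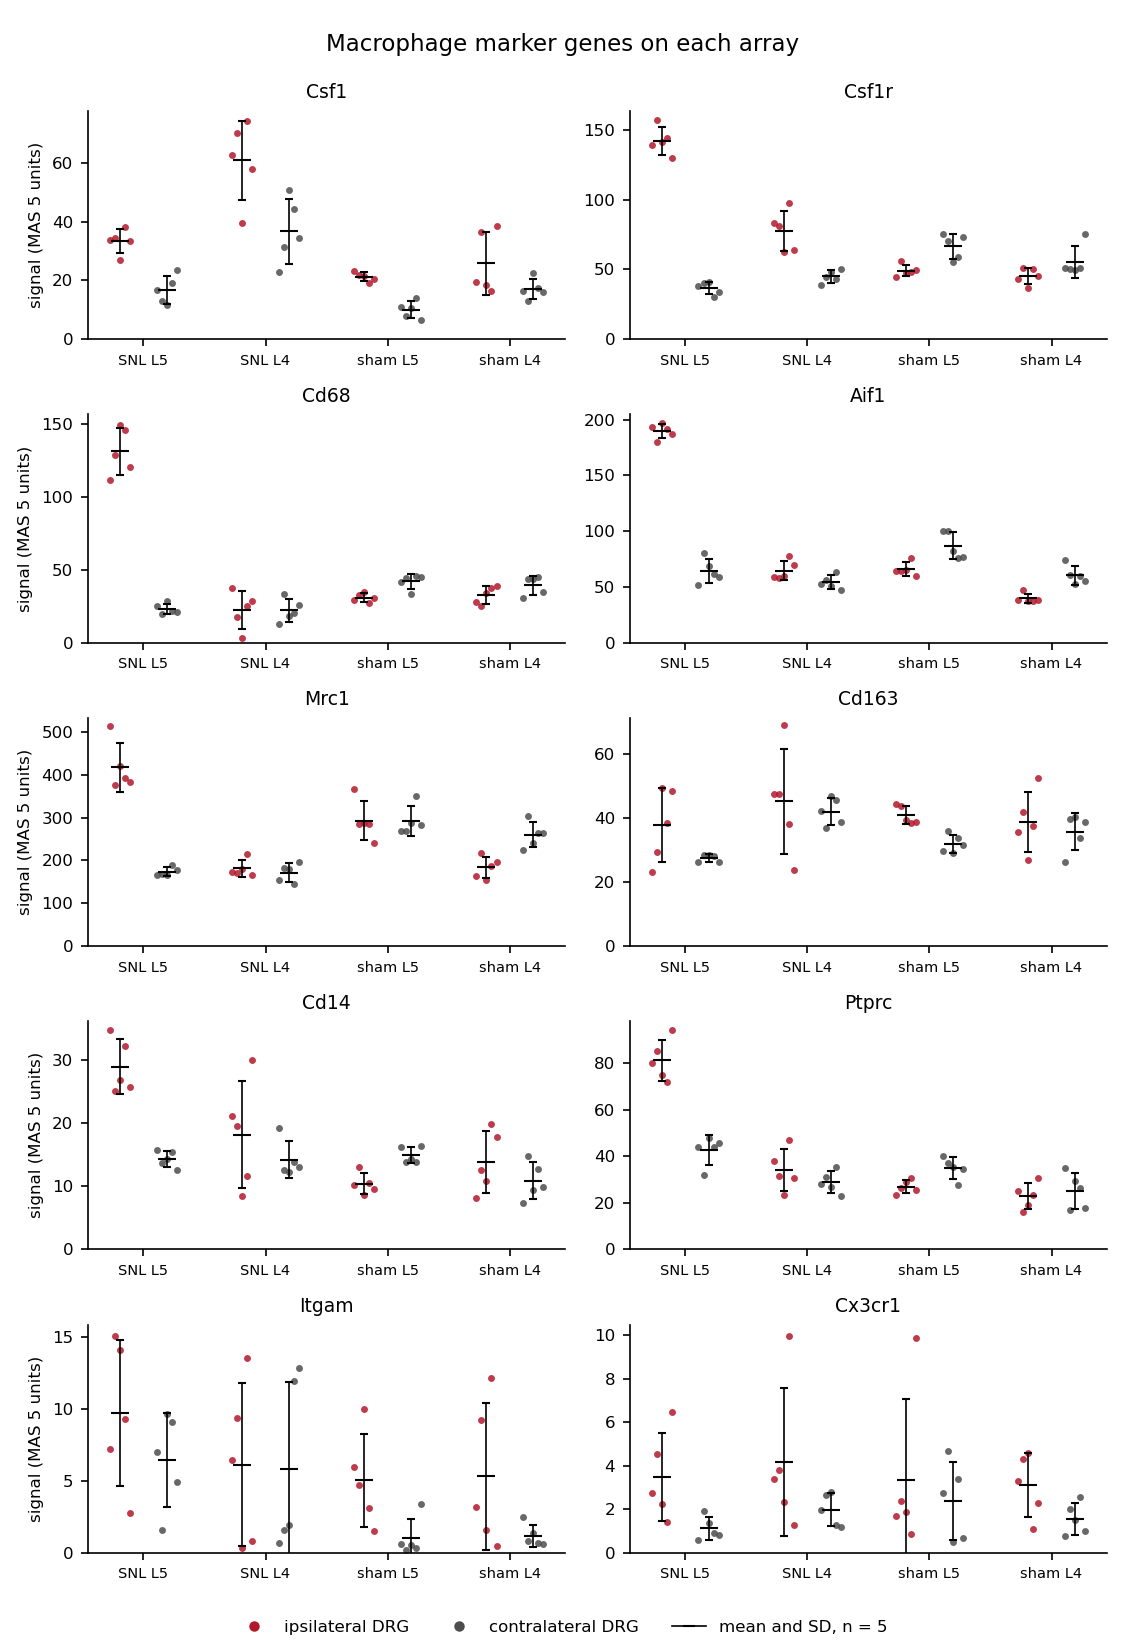
Signal of the 10 genes on each of the 40 arrays (vertical axis, MAS 5 units, each panel with its own scale from 0), by cohort and segment, with ipsilateral DRGs left of contralateral ones. Points are arrays and black bars the mean and SD of 5, cut at 0 where the SD is larger than the mean. The ipsilateral SNL L5 arrays stand above their contralateral partners for Csf1r, Cd68, Aif1, Mrc1, Ptprc, Cd14 and Csf1.

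Cd68 had the largest change of the 10. On the ligated side of L5 its signal was 112, 129, 149.7, 147 and 121 in SNL rats 4, 8, 9, 18 and 48, against 24.9, 19.9, 28.4, 21.9 and 20.8 in their contralateral DRGs. The sides were far apart in all 5 rats. The log2 fold change was 1.91 ± 0.10 (SE, adjusted p = 3.5e-11), and the mean signals differed 5.67-fold.

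Csf1r, the receptor of the lineage's growth factor, had ipsilateral signals of 139, 157, 141, 144 and 129.6, against contralateral signals of 38.1, 40.2, 40.9, 30.4 and 33.9 in the same rats. The log2 fold change was 1.59 ± 0.08 (SE, adjusted p = 4.69e-11), a ratio of mean signals of 3.87. The lowest ipsilateral array was thus well above the highest contralateral one. Aif1 gave 194, 180.3, 197, 192 and 187 on the ipsilateral side, against 52.0, 80.0, 68.8, 61.5 and 58.8 on the contralateral side. Its log2 fold change was 1.37 ± 0.08 (SE, adjusted p = 4e-10). The ipsilateral arrays of Aif1 were tighter than the contralateral ones, with an SD of 6.46 against 10.7 signal units. A dimmer second probe set of Aif1 moved the same way, at 7.36 ± 2.53 in ipsilateral and 1.46 ± 1.43 in contralateral DRGs (SD, n = 5 each; log2 fold change 0.42, adjusted p = 0.00301).

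Of the 2 scavenger-type receptors, Mrc1 passed and Cd163 did not; the difference between them was not tested. Mrc1 measured 515, 376, 421, 393 and 384 in ipsilateral L5 DRGs of SNL rats, against 167, 167, 167, 189 and 178 in contralateral ones (log2 fold change 1.19 ± 0.08 SE, adjusted p = 7.34e-10). The sides did not overlap, and rat 4 had the highest ipsilateral value. Cd163 measured 23.01, 29.4, 49.4, 38.4 and 48.5 ipsilaterally, against 26.2, 28.4, 28.6, 28.2 and 26.2 contralaterally. It was higher in 4 of 5 rats and spread widely on the ipsilateral side, and its log2 fold change of 0.28 ± 0.14 (SE) did not pass the test (adjusted p = 0.103). Without the ipsilateral array of rat 4, the 1 rat in which it was not higher, the change was 0.39 (adjusted p = 0.0151).

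Ptprc, shared by all leukocytes, had ipsilateral signals of 80.3, 85.5, 74.9, 72.1 and 94.3, against contralateral signals of 44.2, 31.9, 48.1, 44.0 and 46.0. Its log2 fold change was 0.73 ± 0.10 (SE, adjusted p = 8.65e-06). A second probe set of Ptprc gave dim and scattered signals, 7.91 ± 5.50 in ipsilateral and 6.93 ± 5.87 in contralateral DRGs (SD, n = 5 each), with a log2 fold change of 0.07 that did not pass the test. Cd14 was dim but its sides were apart, with 34.7, 25.0, 26.7, 32.2 and 25.7 on the ipsilateral side, against 15.7, 13.7, 14.3, 15.3 and 12.6 on the contralateral side (log2 fold change 0.56 ± 0.11 SE, adjusted p = 3.01e-04).

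Itgam and Cx3cr1, both of which macrophages of many tissues express, were measured at signals below the added 16 on every array. In L5 DRGs of SNL rats Itgam ranged from 2.75 to 15.1 on the ipsilateral side, with a median of 9.35, and from 1.63 to 9.68 on the contralateral side, with a median of 7.04. Cx3cr1 ranged from 1.41 to 6.48 ipsilaterally and from 0.585 to 1.94 contralaterally, and was higher in 5 of 5 rats. At such signals neither log2 fold change passed the test (0.18 ± 0.15 and 0.18 ± 0.09, SE). A change of either gene was not detectable in this comparison, which is not the same as no change.

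**Figure D2:**
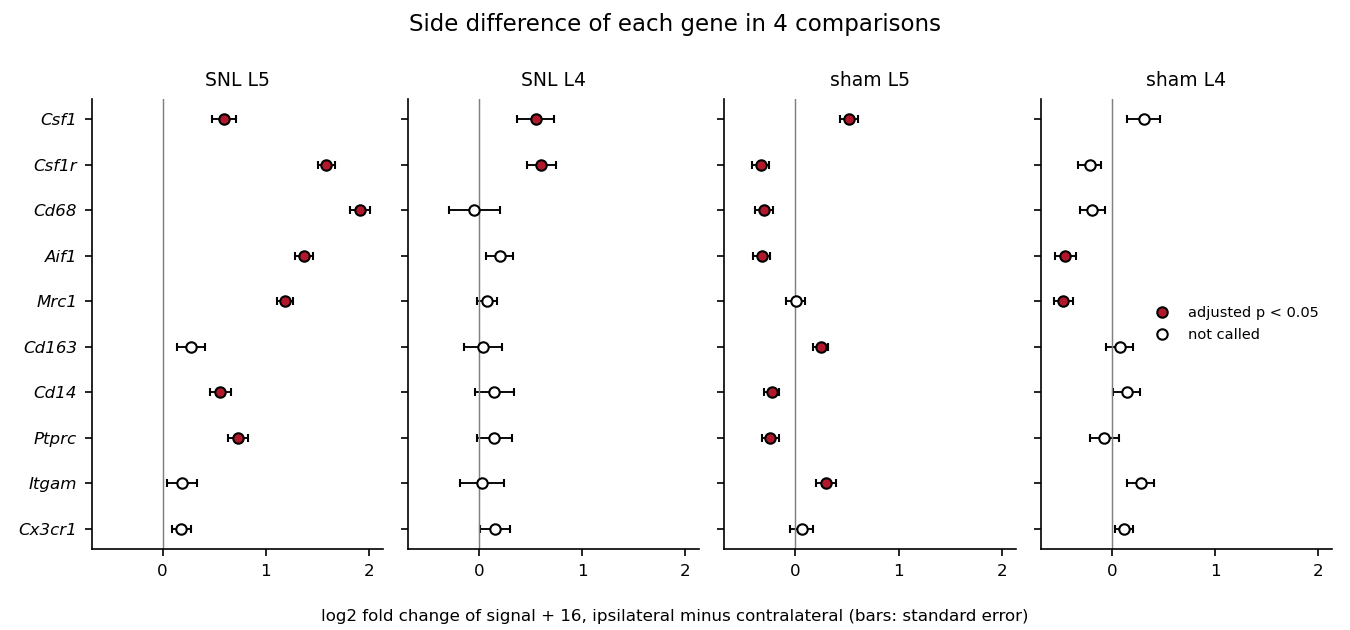
Log2 fold change of signal + 16 (horizontal axis, ipsilateral minus contralateral, bars 1 SE) of the 10 genes in the 4 comparisons of sides. Filled points passed the test at an adjusted p under 0.05. In SNL L5, 7 genes lie to the right of 0 and pass, in SNL L4 only Csf1r and Csf1 pass, and in sham L5 the passing genes lie on both sides of 0.

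In L4, the segment next to the tied nerve, the pattern was narrower: Csf1r and Csf1 rose and none of the 10 fell. Over all genes 11% were higher and 10% lower, or 1559 and 1424 calls, against 739 and 2198 with equal medians. Csf1r was 83.0, 80.9, 62.3, 97.3 and 63.97 in ipsilateral L4 DRGs of SNL rats, against 39.1, 44.2, 48.4, 43.1 and 50.6 in contralateral ones, with no overlap. Its log2 fold change was 0.60 ± 0.14 (SE, adjusted p = 0.00442), and of the alternatives run only the methods' t-test at p under 0.001 lost it. Cd68, which had the largest change at L5, was 37.6, 17.8, 3.11, 25.0 and 28.5 ipsilaterally and 12.9, 33.3, 17.96, 20.5 and 26.0 contralaterally at L4 (log2 fold change -0.05 ± 0.25 SE, adjusted p = 0.928). The 2 sides were interleaved, and the ipsilateral spread was wider than at L5. Aif1 was higher in 5 of 5 rats at L4 but its sides overlapped, 58.1 to 77.8 against 47.6 to 63.7 (log2 fold change 0.20 ± 0.13 SE, adjusted p = 0.32). The remaining genes had log2 fold changes of 0.03 to 0.15 there and did not pass.

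Csf1, the ligand, is the member whose reading depended most on the probe set. In L5 DRGs of SNL rats its brightest probe set (1380583_s_at) was 33.6, 34.5, 26.9, 38.1 and 33.2 on the ipsilateral side, against 16.8, 13.04, 11.6, 19.0 and 23.5 on the contralateral side (log2 fold change 0.60 ± 0.12 SE, adjusted p = 5.54e-04). The same probe set was also higher on the ipsilateral side in L4 of SNL rats (0.55 ± 0.18 SE, adjusted p = 0.039) and in L5 of sham rats (0.52 ± 0.09 SE, adjusted p = 1.99e-04). The L4 call was lost without any 1 of 7 of its 10 arrays, the ipsilateral arrays of rats 4, 8, 18 and 48 and the contralateral arrays of rats 4, 8 and 48, with adjusted p of 0.0583 to 0.106, and with the rat as a block (adjusted p = 0.0576). It was also lost with quantile normalization (adjusted p = 0.0861), with equal medians (0.0932) and with the methods' t-test after adjustment (0.0769).

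The second probe set of Csf1 (1379631_at) separated the tied ganglion from all the others. It was 68.8, 63.0, 62.4, 55.2 and 56.0 in ipsilateral L5 DRGs of SNL rats, against 18.9, 11.5, 15.7, 11.7 and 9.28 in contralateral ones, a log2 fold change of 1.40 ± 0.11 (SE, adjusted p = 1.52e-08) and a ratio of mean signals of 4.55. In the other 3 comparisons it did not pass, with log2 fold changes of -0.32 in SNL L4, 0.10 in sham L5 and 0.06 in sham L4. The third probe set (1380582_at) was higher by 0.39 in SNL L5, 0.31 in sham L5 and 0.49 in sham L4, and the dimmest (1369354_at) by 0.36 in sham L5 only. In SNL L5 the dimmest was 1.38 to 2.72 on the ipsilateral side and 1.02 to 8.93 on the contralateral side. The files do not say which part of the transcript each probe set reads.

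**Figure D3:**
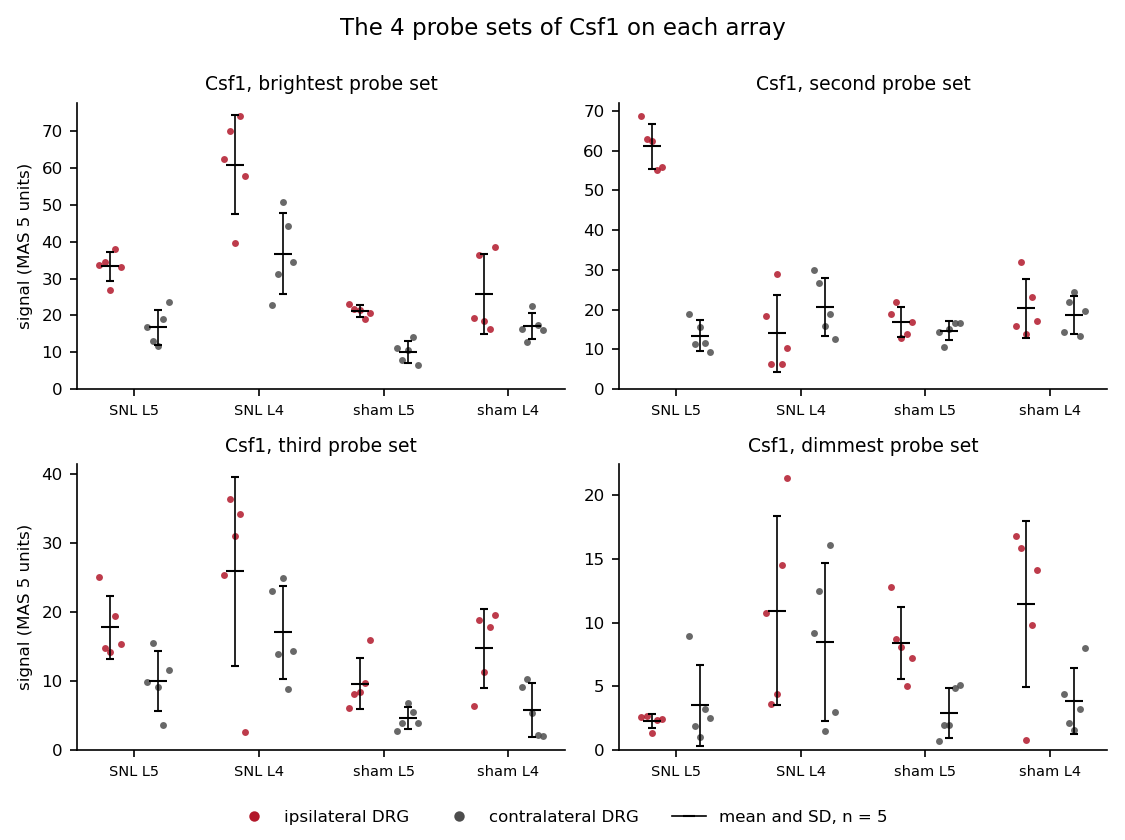
Signal of the 4 Csf1 probe sets on each array (vertical axis, MAS 5 units, own scale per panel from 0), by cohort and segment, with ipsilateral DRGs left of contralateral ones. Points are arrays and bars the mean and SD of 5. Only the second probe set has the ipsilateral SNL L5 arrays, at 55.2 to 68.8, above all other arrays.

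In sham rats the genes that rose after SNL mostly fell on the operated side or did not pass. At L5, 3 genes were higher (Csf1, Itgam and Cd163) and 5 lower (Csf1r, Aif1, Cd68, Ptprc and Cd14), where 21.4% of all genes were higher and 28.2% lower. Csf1r was 44.8, 55.7, 47.5, 48.2 and 49.2 in ipsilateral L5 DRGs of sham rats 1, 14, 17, 22 and 23, against 75.1, 70.3, 55.1, 59.0 and 73.2 in contralateral ones. It was lower in 5 of 5 rats, with a log2 fold change of -0.34 ± 0.08 (SE, adjusted p = 0.00352). Aif1 was 60.01 to 76.2 against 76.4 to 100.2, and its sides did not overlap (-0.33 ± 0.08 SE, adjusted p = 0.00452). Cd68 was 27.4 to 35.0 against 33.2 to 45.6 (-0.30 ± 0.08 SE, adjusted p = 0.00741). The falls of Ptprc and Cd14 were -0.24 and -0.23, and that of Ptprc was lost with the rat as a block (adjusted p = 0.0658) and without any 1 of 5 arrays, the ipsilateral one of rat 1 and the contralateral ones of rats 1, 14, 17 and 23. Mrc1 had the same mean on both sides, 293 ± 45.9 in ipsilateral and 292 ± 34.2 in contralateral DRGs (SD, n = 5 each).

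These sham L5 results moved with the scaling of the arrays. When every array was scaled to the same median signal, the median log2 fold change of all genes went to -0.28 (-0.03 as deposited), the 5 falls passed again, Mrc1 passed as lower (-0.30) and Cd163 was no longer called (0.03), while Csf1 and Itgam stayed higher. After quantile normalization the same 5 genes passed as lower and none as higher. The split of all genes into higher and lower calls moved likewise, from the deposited 3041 and 4011 to 1544 and 8058 with equal medians and to 1600 and 3888 with quantile normalization. In the fit of all 8 groups together only Csf1 remained higher and Csf1r and Aif1 lower at this level.

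At L4 of sham rats Mrc1 and Aif1 fell and none of the 10 rose, with 12.8% of all genes higher and 13.7% lower. Mrc1 was 163, 217, 155, 186 and 195 on the ipsilateral side, against 226, 304, 241, 265 and 264 on the contralateral side, with no overlap (log2 fold change -0.47 ± 0.09 SE, adjusted p = 0.00128). Aif1 was 38.6, 47.3, 37.5, 37.3 and 37.8, against 73.7, 60.3, 52.2, 59.6 and 55.5 (-0.45 ± 0.10 SE, adjusted p = 0.00374). Both were lower in 5 of 5 rats. With equal medians Csf1r (-0.40) and Cd68 (-0.36) passed as lower too, while the split of all genes was 894 higher and 5398 lower, against 1825 and 1949 as deposited.

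The differences between these effects were tested directly. At L5 the side difference was larger in SNL than in sham rats for 6 genes and smaller for none, where 32.1% of all genes were higher and 18.3% lower. The 6 were Cd68 (2.21 ± 0.13, SE, on the log2 scale), Csf1r (1.93 ± 0.11), Aif1 (1.70 ± 0.12), Mrc1 (1.19 ± 0.13), Ptprc (0.97 ± 0.13) and Cd14 (0.79 ± 0.12), and the largest adjusted p among them was 4.84e-06. The fall of Csf1r, Aif1, Cd68, Ptprc and Cd14 in sham L5 is part of these values. The brightest probe set of Csf1 did not differ detectably between the cohorts (0.08 ± 0.15, SE, adjusted p = 0.718), whereas its second probe set passed as higher (1.30 ± 0.14, SE, adjusted p = 3.67e-08), its dimmest passed as lower (-0.44 ± 0.14, SE, adjusted p = 0.0135) and the third did not pass (0.08). The 4 probe sets thus give no single direction for Csf1 in this test.

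At L4 the same test passed for Csf1r (0.82 ± 0.17, SE, adjusted p = 0.00155), Aif1 (0.65 ± 0.15, adjusted p = 0.00406) and Mrc1 (0.55 ± 0.14, adjusted p = 0.0066), with 8.93% of all genes higher and 7.73% lower (1270 and 1099 calls, or 1881 and 740 with equal medians). For Aif1 and Mrc1 the L4 side difference itself passed only in sham rats, as a fall. The call for Mrc1 was lost after quantile normalization (0.41, adjusted p = 0.0625). Within SNL rats the side difference was larger at L5 than at L4 for 5 genes, Cd68 (1.96), Aif1 (1.17), Mrc1 (1.11), Csf1r (0.98) and Ptprc (0.58), with 15.1% of all genes higher and 10.3% lower. The call for Ptprc was lost without the ipsilateral L5 array of rat 48 (adjusted p = 0.051) or the contralateral L5 array of rat 8 (adjusted p = 0.051). Cd14, at 0.41, did not pass. Csf1 did not pass by its brightest probe set (0.05) but did by its second (1.72, adjusted p = 6.95e-06). The dimmer probe sets of Aif1 and Ptprc passed in none of the 3 differences.

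Ordered by level over the 8 groups, the ipsilateral L5 DRGs of SNL rats came first for 7 genes, Csf1r, Cd68, Aif1, Mrc1, Cd14, Ptprc and Itgam. For the first 6 of these the step to the next group exceeded the larger SD of the 2 groups. Csf1r went from 142 in that group through 77.5 in SNL L4 ipsilateral, 66.5 in sham L5 contralateral, 55.4 in sham L4 contralateral, 49.1 in sham L5 ipsilateral, 45.2 in sham L4 ipsilateral and 45.1 in SNL L4 contralateral to 36.7 in SNL L5 contralateral DRGs. Its neighbours in that order at 77.5 and 66.5, and those from 55.4 to 45.1, did not differ beyond their spread. For Cd68 the next group, sham L5 contralateral, was at 42.1, and the lowest on the log2 scale, SNL L4 ipsilateral, at 22.4. Mrc1 was next highest in both L5 groups of sham rats, 293 and 292. Csf1 by its brightest probe set had another order, led by SNL L4 ipsilateral DRGs at 60.9, then SNL L4 contralateral at 36.7 and SNL L5 ipsilateral at 33.3. The same groups, in the same order, had the highest mean array medians, 54.4, 49.4 and 43.1. Sham L5 contralateral DRGs were lowest in both orders, while SNL L5 contralateral ones stood lower for Csf1 than for the medians. The part of the array medians in this order of Csf1 was not tested. For Cd163 the means lay between 27.5 and 45.2, and only the step from sham L5 contralateral to SNL L5 contralateral DRGs exceeded the spread. No step in the order of Itgam or Cx3cr1 did.

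Of 54 other macrophage genes listed, 42 were measured. In L5 of SNL rats 36 of them rose and 1 fell, where 35.4% of all genes were higher and 19% lower. Their median log2 fold change was 1.10, against 0.13 over all genes. The pore-forming protein gene Mpeg1 had the largest, at 285 ± 13.6 in ipsilateral and 53.1 ± 7.82 in contralateral DRGs (SD, n = 5 each; log2 fold change 2.13 ± 0.08 SE), although its dimmer probe set did not pass (0.13). It was followed by the macrophage receptor Adgre1 (F4/80), at 232 ± 18.2 and 48.1 ± 6.76 (1.95), the inhibitory Fc receptor Fcgr2b (1.84) and the lysosomal protease Ctss (1.78). The gene that fell was Coro1a (-0.28), an actin regulator of leukocytes.

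In L4 of SNL rats 7 of the 42 rose and 1 fell, where 11% of all genes were higher and 10% lower. The 4 largest were the complement gene C1qb (0.60), the leukocyte tetraspanin Cd53, which fell (-0.58), the myeloid transcription factor Cebpa (0.57) and the complement gene C1qa (0.56), and Adgre1 also rose (0.51, adjusted p = 0.00238). In sham rats calls went both ways, with 8 higher and 16 lower at L5 and 6 higher and 10 lower at L4. The higher calls were near the shares over all genes, 21.4% at L5 and 12.8% at L4. The lower calls were above theirs, 28.2% at L5 and 13.7% at L4, and that excess was not tested. At sham L5 the fungal-glucan receptor Clec7a (0.76) was higher and the scavenger receptor Stab1 (-0.74) and Adgre1 (-0.66) were lower. At sham L4 the lysosomal protein gene Laptm5 was lower by its brightest probe set (-0.83) but not by its other one (0.09). The integrin gene Itgb2 was higher at sham L4 (0.63, adjusted p = 5.67e-04). The difference between SNL and sham rats passed for 35 genes as higher and 1 as lower at L5, and for 7 as higher at L4. Over all genes 32.1% were higher and 18.3% lower in this test at L5, and 8.93% were higher at L4.

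**Figure D4:**
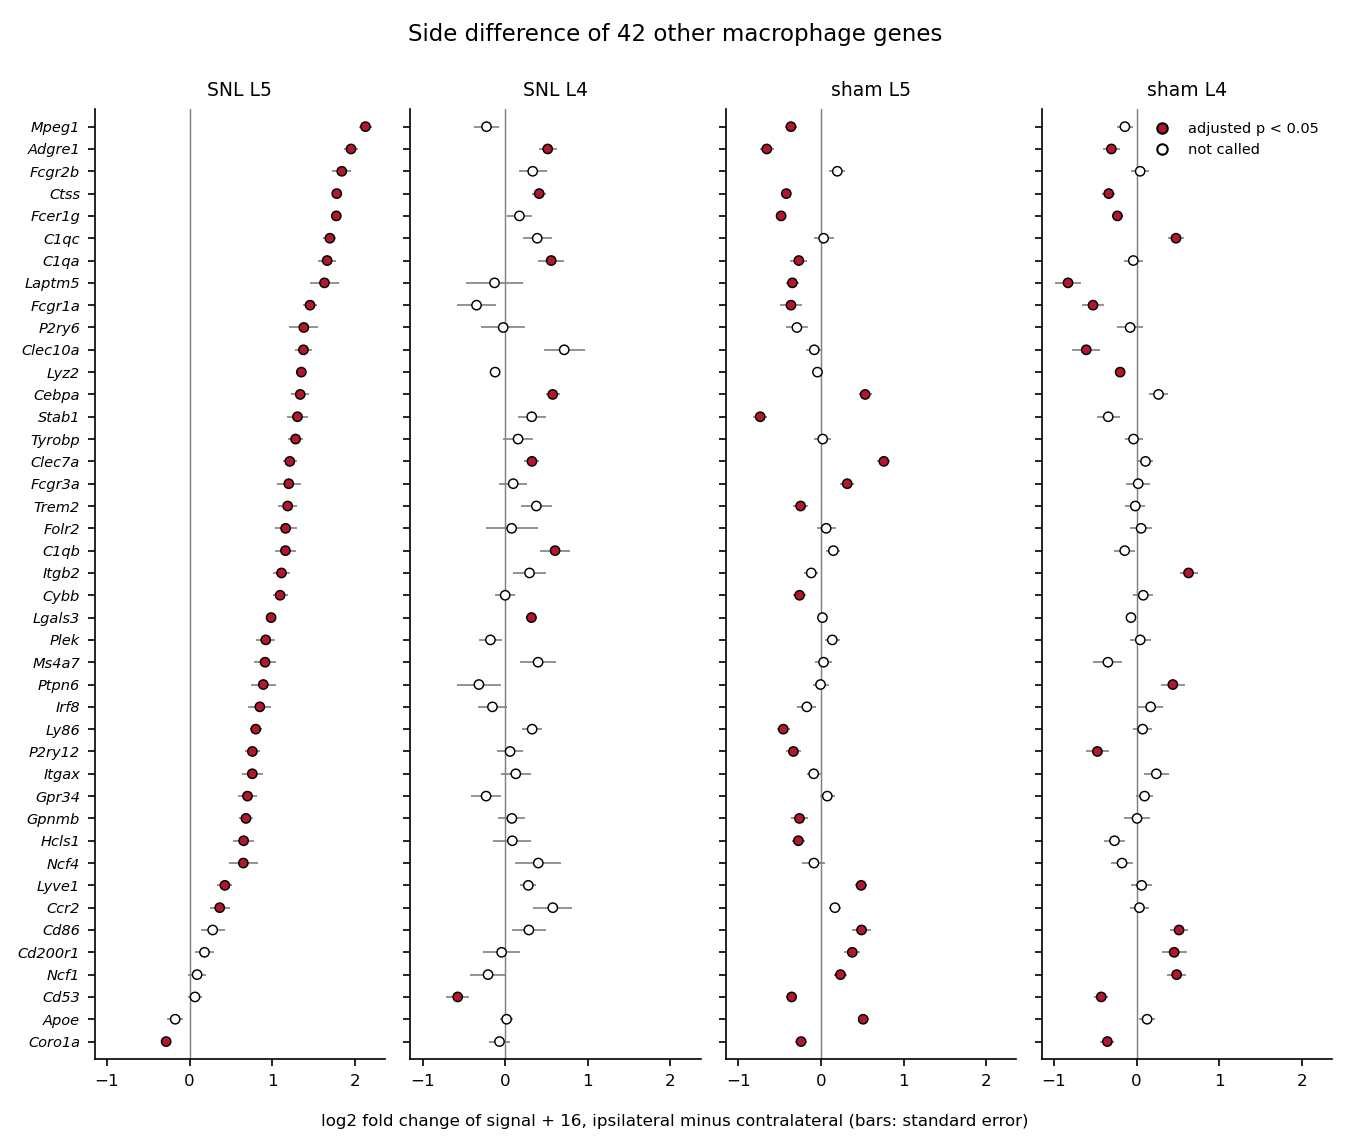
Log2 fold change of signal + 16 (horizontal axis, ipsilateral minus contralateral, bars 1 SE) of the 42 other macrophage genes measured, in the order of SNL L5, in the 4 comparisons of sides. Filled points passed the test. In SNL L5, 36 genes pass to the right of 0, in SNL L4 7 do, and in sham rats the passing genes fall on both sides.

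Among 14 ligands and partners of the members, 8 rose and 2 fell in L5 of SNL rats, where 35.4% of all genes were higher and 19% lower. For SNL beyond sham at L5, 6 passed as higher and 2 as lower, against 32.1% and 18.3% of all genes. Complement C3, whose fragment iC3b is bound by the integrin that Itgam belongs to, was 214 ± 6.85 in ipsilateral and 20.8 ± 1.84 in contralateral DRGs (log2 fold change 2.64 ± 0.07 SE). It also rose at L4 of SNL rats (0.91) and did not pass in sham rats. The adhesion ligand Icam1 (1.503), the chemokines Ccl7 (1.11) and Ccl2 (0.53), the growth factor Tgfb1 (0.71) and the lipopolysaccharide receptor Tlr4 (0.39) with its partner Ly96 (0.56) rose at L5. At L4 of SNL rats Tlr4 (0.65, adjusted p = 0.00801) and Ly96 (0.69, adjusted p = 0.00144) rose as well. For these 2 genes the difference between SNL and sham rats passed at L4 (0.71 for Tlr4 and 0.99 for Ly96) and did not pass at L5 (0.32 for each). Il34, the other ligand of the Csf1r receptor, was 71.0 ± 10.03 in ipsilateral and 53.8 ± 7.58 in contralateral DRGs at SNL L5 (0.32 ± 0.10 SE, adjusted p = 0.0162) and fell at sham L5 (-0.42). The "don't eat me" ligand Cd47 (-0.27) and its receptor Sirpa (-0.33) were lower at SNL L5 by their brightest probe sets, and so they were at SNL L4 (-0.53 for Cd47 and -0.89 for Sirpa). Other probe sets disagreed: that of Cd47 did not pass at L5 (-0.05) but fell at L4 (-0.49), and for Sirpa 1 was higher at L5 (0.34). Hmox1, which acts on the haem that Cd163 brings in, was at 37.6 and 37.3 (0.01, not passing), and the Cx3cr1 ligand Cx3cl1 did not pass either (0.08).

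Of 14 macrophage activation genes, 7 rose in L5 of SNL rats and none fell, where 35.4% of all genes were higher and 19% lower. For SNL beyond sham at L5, 6 passed as higher and 2 as lower, where 32.1% of all genes were higher and 18.3% lower. The median difference of the 14 genes was 0.07 on the log2 scale, against 0.08 over all genes. Arg1, an arginine-consuming enzyme of the alternative state, was 147 ± 9.35 in ipsilateral and 10.3 ± 2.31 in contralateral DRGs (log2 fold change 2.63 ± 0.09 SE). Tgm2 (1.07, with 0.16 and no call by its other probe set), Cxcl10 (1.05) and Il6 (0.92) followed. In L4 of SNL rats, where 11% of all genes were higher and 10% lower, the single call was a fall of Spp1 (-0.63). In sham L5 the inducible nitric oxide synthase gene Nos2 was higher (1.24). Whole ganglia were read, so the cells that carried the transcripts of this list were not identified, and a state of macrophages cannot be read from them.

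Markers of other cells were read in the same comparisons. Neutrophil genes, 7 of 11 listed being measured, went the other way in SNL rats: 5 fell at L5 and 5 at L4. Over all genes 19% were lower at L5 and 10% at L4 of SNL rats. In sham rats 21.4% of all genes were higher at L5 and 12.8% at L4. The summed signal of the neutrophil genes in SNL rats was 457 to 499 in ipsilateral and 1015 to 1071 in contralateral L5 DRGs. At L4 it was 226 to 299.8 in ipsilateral and 1188 to 1308 in contralateral DRGs. S100a8 fell most, by -3.52 at L4. In sham L5 6 of the 7 were higher, with sums of 259.7 to 297 ipsilaterally and 131 to 152 contralaterally, and at sham L4 4 were higher and 1 lower. Of 3 red blood cell genes measured, 2 fell in SNL L5 and 1 in SNL L4, where Hbb was 948 ± 106 in ipsilateral and 2140 ± 133 in contralateral DRGs.

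All 6 fibroblast genes rose in SNL L5 (Col3a1 by 2.02) and 5 rose in SNL L4, and their summed signal at L5 was 9668 to 11085 in ipsilateral and 3378 to 3635 in contralateral DRGs. Of 10 sensory neuron genes, 7 fell and 2 rose in SNL L5. Of 12 T, NK and B cell genes measured 5 rose there, led by Gzmb (1.52), which is near the 35.4% of all genes that were higher, and the difference between SNL and sham rats passed for 2 as higher and 1 as lower. In sham L5 5 of the 12 rose too, where a smaller share of all genes, 21.4%, was higher, and that excess was not tested. Of 6 mast cell genes 4 rose and 1 fell in SNL L5, and 2 passed as higher and 1 as lower beyond sham. Of 8 satellite glia and Schwann cell genes 5 rose and 2 fell in SNL L5, but beyond sham 2 passed as higher and 4 as lower. Of 5 endothelial genes 4 rose and 1 fell, and beyond sham 4 passed as higher and 0 as lower. All 5 nerve injury genes rose in SNL L5, and all 5 passed as higher beyond sham. Over all genes 35.4% were higher and 19% lower in SNL L5, and 32.1% and 18.3% beyond sham. In SNL L4 11% of all genes were higher. The part of these shifts, and of the GAPDH and actin ratios, in the change of the macrophage genes was not tested.

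Over the 40 arrays and 8933 genes above the median level, the gene whose log2 signal followed Csf1r most closely was Adgre1 (Pearson r = 0.935), then Cd74 (0.926), Tgfbi (0.921), Myoc (0.920) and A2m (0.917). Among the members, r with Csf1r was 0.830 for Aif1, 0.765 for Cd68 and 0.122 for Cd163. These correlations describe 40 arrays in which the ipsilateral SNL L5 group stands apart: over the other 35 arrays r was 0.814 for Adgre1, 0.407 for Aif1 and 0.194 for Cd68, and for deviations from the group means it was 0.238, 0.159 and 0.271. For such deviations r with Csf1r was near 0 for Cd74 (0.006), Tgfbi (-0.077), Myoc (-0.040) and A2m (0.023). Their likeness to Csf1r thus lay between the groups and not within them. The genes closest to Csf1 by its brightest probe set were Dcaf12l1 (0.903), Tmsb10-ps5 (0.898), Saal1 (0.895), LOC102548459 (0.892) and Rdh13 (0.891), and r between Csf1 and Csf1r was 0.327. For deviations from the group means these values were 0.511, 0.308, 0.363, 0.521 and 0.434, and 0.182 between Csf1 and Csf1r.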

How the data were processed

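Messenger RNA of 40 single DRGs was measured on Affymetrix rat genome arrays. The authors deposited 1 table of linear intensity values from the MAS 5 algorithm, with no version stated in the labels or methods; the 2% trimmed mean of every array is 99.99. Groups and rat numbers came from the sample labels, and all 40 columns were used. Detection calls were not used.

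After 57 control probe sets were left out, log2(signal + 16) was fitted with limma 3.58.1 in R 4.3.3 (lmFit, eBayes with an intensity trend), on 10 arrays for each comparison of sides and on 20 for each difference, and adjusted over 31042 probe sets. Single measures of array quality were compared by exact permutation tests. Gene names came from the platform annotation: 20826 probe sets carry 1 symbol, 436 several and 9780 none listed here. Rats were separate animals, and precision is limited by the number of rats, 5 per cohort. The methods' t-test at p under 0.001 does not state pairing, so the rat was left out of the main fit. The same rat gave both sides, and within a segment deviations of its DRGs from the group means correlated at -0.14 to 0.10. The test of L5 against L4 in SNL rats took its 20 arrays from 5 rats, and correlation between segments of a rat was not examined. Alternatives were offsets of 1 and 64, quantile normalization, equal medians, leaving out dim probe sets, no trend, that t-test, a joint fit of the 8 groups, the rat as a block, other probe sets and leaving out each array. The fits were tested on simulated arrays.

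The 10 members, the gene lists and the rule for named genes were chosen with earlier results of these data known. The rule names all members, of each list up to 4 called genes with the largest change, ligands and partners above the median level, and the 5 genes most like Csf1r and Csf1. Tlr4, Cx3cl1, Coro1a, Adgre1 at L4 and the list genes called in the other comparisons were added after their values were seen. Promoters were searched in the 250 bases before the start; the 50 bases after it were not used. MiRNA measurements are not analysed here.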

Additional observations from a re-analysis of the deposited data

Results flagged for a closer look

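For 8 of 80 sets of 5 arrays, 1 array stood far from its other 4 on the log2 scale, where chance gives about 1 in 20. These were Aif1 in ipsilateral sham L4 DRGs (47.3 in rat 14), Cd14 in contralateral SNL L4 (19.3 in rat 4), Cd68 in contralateral sham L5 (33.2 in rat 17, the lowest), Csf1r in contralateral sham L4 (75.5 in rat 23) and Cx3cr1 in ipsilateral sham L5 (9.89 in rat 23). The others were Itgam in contralateral sham L5 (3.40 in rat 23), Mrc1 in contralateral sham L5 (351 in rat 22) and Ptprc in contralateral SNL L5 (31.9 in rat 8, the lowest).

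The effect of side differed between cohorts or segments, by the test of the difference itself, for 14 values on the log2 scale. SNL exceeded sham at L5 for Cd68 (2.21), Csf1r (1.93), Aif1 (1.70), Mrc1 (1.19), Ptprc (0.97) and Cd14 (0.79). It did so at L4 for Csf1r (0.82), Aif1 (0.65) and Mrc1 (0.55). In SNL rats L5 exceeded L4 for Cd68 (1.96), Aif1 (1.17), Mrc1 (1.11), Csf1r (0.98) and Ptprc (0.58).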

How the results depend on the processing

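By their brightest probe sets, the 7 members higher in SNL L5 passed in every alternative run; the filter on dim probe sets removed Cd14, which was then not tested. Without 1 array the counts were 7 to 8 higher in SNL L5, 1 to 2 in SNL L4, 3 to 3 higher and 4 to 5 lower in sham L5, 2 to 2 lower in sham L4, 6 to 6 and 3 to 3 for SNL beyond sham at L5 and L4, and 4 to 5 for L5 beyond L4. The 2 members higher in SNL L4 became 1, with Csf1 lost, with quantile normalization, equal medians, the methods' t-test after adjustment and the rat as a replicate block, and 0 with that t-test at p under 0.001. The 3 higher in sham L5 became 0 with quantile normalization and 1 without dim probe sets, with the t-test at p under 0.001 and in the fit of all 8 groups. They became 2 with equal medians, with Cd163 lost, and 2 with the t-test after adjustment, with Itgam lost. The 5 lower there became 0 with the t-test and 2 in the fit of all 8 groups. The 2 lower in sham L4 became 4 with equal medians and 0 with the t-test. The rat block took 1 further member call, that of Ptprc in sham L5 (5 lower became 4), and changed no other call.

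Directions turned with the probe set for Csf1 in SNL L5 (-0.080, dimmest) and SNL L4 (-0.32, second) and in SNL beyond sham at L5 (-0.44, dimmest, adjusted p = 0.0135), for Aif1 in sham L5 (0.11) and L4 (0.11), and for Ptprc in sham L5 (0.19) and in SNL beyond sham at L5 (-0.12). Values that passed with neither probe set also turned: in SNL beyond sham at L4, Csf1 (0.24 by the brightest, -0.38, -0.21 and -0.30 by the others) and Ptprc (0.22 and -0.12), in sham L4 Ptprc (-0.07 and 0.11), in SNL L4 Ptprc (0.15 and -0.01), and in L5 beyond L4 the dimmest Csf1 probe set (-0.21, against 0.05). Mrc1 in sham L5 turned with equal medians (-0.30). The causes were not tested. Among all genes, higher and lower calls in SNL L5 were 5038 and 2704 as deposited and 3002 and 3986 with equal medians, and 2534 higher with the t-test at p under 0.001. In SNL L4 they were 1559 and 1424, against 739 and 2198 with equal medians, 511 and 789 with the t-test and 3006 higher in the fit of all groups. In SNL beyond sham at L4, equal medians gave 1881 and 740 calls, against 1270 and 1099. Signals under the added 16 limit what can be said of Itgam and Cx3cr1.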
